A study of Mus musculus with 8 samples.

Results

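The metallothionein genes Mt1 and Mt2 and Mtf1, the gene of the zinc-sensing transcription factor that drives them, were examined in mouse Paneth cells. They were taken by symbol from the table of read counts, where they are 3 of 55414 gene identifiers, and all 3 were detected in every library. The libraries were made from Paneth cells that had been dissociated from the small intestine and sorted by flow cytometry, with a stranded kit for messenger RNA. All mice were C57BL/6J. 4 samples came from mice on standard chow (control) and 4 from mice on zinc-depleted chow (zinc deficient), both given for 7 weeks. The study's methods describe each sample as cells of an individual mouse. The sources used here do not give the age of the mice. The design calls the samples biological replicates. Each diet test below sets the difference between the diets against the spread between these replicates. The tests of level order and of correlation pool the libraries of both diets.

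Metallothioneins are small cysteine-rich proteins that bind zinc, copper and cadmium and buffer free zinc in the cytosol. MTF1 is a zinc finger transcription factor that takes up zinc when the metal is plentiful, enters the nucleus and binds metal response elements, short motifs in the promoters of Mt1, Mt2 and the zinc exporter gene Slc30a1. Paneth cells, the antimicrobial secretory cells at the base of the crypts, hold zinc in their granules, which makes the metal response of these cells a question that a diet poor in zinc poses.

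Mt1 (ENSMUSG00000031765) lies on the plus strand of chromosome 8 (chr8:94905710-94906955, GRCm39, GENCODE gene boundaries), and Mt2 (ENSMUSG00000031762) lies just upstream on the same strand (chr8:94898819-94900207). Mtf1 (ENSMUSG00000028890) lies on the plus strand of chromosome 4 (chr4:124695897-124743593). The core of the metal response element was searched as TGCACNC or TGCGCNC on both strands of the RefSeq promoter window of each gene, which covers 250 bases before and 50 bases after the transcription start. The matches in Mt1 and Mt2 did not overlap one another. The windows come from a GRCm38.p6 table, and the positions given here come from their exact match to GRCm39. Before the start lay 1 of the 3 matches of Mt1 and 3 of the 4 of Mt2. The matches of both metallothionein genes are shown as letters of the motif core, and whether MTF1 binds them was not tested. Each is read 5′ to 3′ on the plus strand with 8 flanking bases on either side, and the capitals mark the core.
Mt1 site at -23 (chr8:94905686-94905708): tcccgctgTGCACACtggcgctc
Mt1 site at 3 (chr8:94905711-94905733): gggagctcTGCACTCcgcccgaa
Mt1 site at 21 (chr8:94905729-94905751): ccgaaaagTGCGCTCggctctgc
Mt2 site at -223 (chr8:94899015-94899037): atcgcctcTGCACCCggcccctc
Mt2 site at -128 (chr8:94899110-94899132): agacccttTGCGCTCagctcctt
Mt2 site at -50, core on the minus strand (chr8:94899188-94899210): gggagggcGTGTGCAggctctgt
Mt2 site at 5, core on the minus strand (chr8:94899242-94899264): ttcgggtcGTGCGCAggcccagg

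Positions in these names are those of the first core base relative to the RefSeq transcription start. The Mt1 window therefore held 3 matches and the Mt2 window 4. Of 32851 RefSeq promoter windows of the same length, 25.7% held at least 1 match, 1.97% at least 3 and 0.517% at least 4. The windows of the brain-type metallothionein gene Mt3 and of Mt4 held 1 match each. The Mtf1 window held none, which says only that these letters are not in this window.

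The libraries held 8557690 to 12648005 counts. The 7 Paneth markers, among them Lyz1 and the alpha-defensin gene Defa24, summed to 462000 to 570000 CPM (counts per 1000000 counts of the library) in control and 522000 to 608000 CPM in zinc deficient libraries, so the labelled cell type was borne out by its markers. The goblet list summed to 6360 to 10600 CPM, the enterocyte list to 16.1 to 144 CPM, the tuft list to 11.8 to 311 CPM and the enteroendocrine list to 1.58 to 22.4 CPM. The goblet sum was mostly Spink4 (4780 to 7510 CPM in control and 5150 to 7750 CPM in zinc deficient libraries). The immune, stromal and erythroid lists each stayed at or below 3.14 CPM, with Cd3e, Col1a1, Col3a1, Dcn and Alas2 at 0 in all 8 libraries. The 4 markers of crypt base stem cells summed to 1280 to 2010 CPM in control and 461 to 1030 CPM in zinc deficient libraries, without overlap. That sum was mostly Olfm4 (1140 to 1780 CPM against 374 to 893 CPM, edgeR adjusted p = 0.108). All 4 markers were lower in zinc deficient libraries in point estimate, and 0 of the 4 passed with edgeR. Olfm4, Lgr5 and Ascl2 were lower at an unadjusted edgeR p under 0.05, as were 6.04% of all genes tested. Smoc2 overlapped between the diets. Because a handful of antimicrobial genes took so large a share of the reads, 2 scales are used throughout. CPM by library size is the plain share of reads, and TMM-scaled CPM (edgeR's trimmed mean of M-values) aligns the bulk of the genes between libraries. The TMM factors ran from 0.719 to 1.57. Without them the median log2 difference of all tested genes between the diets was -0.369, against -0.00524 with them.

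Mt1 had the most counts of the metallothionein genes. They were 235, 157, 104 and 129 in the control libraries (replicates 1 to 4) and 130, 115, 133 and 55 in the zinc deficient ones. On the CPM scale these were 19.9, 14.9, 12.2 and 12.9 in control and 13.1, 10.4, 11.6 and 4.35 in zinc deficient. The highest level was that of control replicate 1 and the lowest that of zinc deficient replicate 4, and the ranges of the diets overlapped. On the TMM scale the control libraries drew together at 12.7, 12.9, 13.1 and 13.7, while the zinc deficient libraries spread over 14.0, 14.5, 10.6 and 5.14. Thus 2 zinc deficient libraries lay above all controls and 2 below.

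Mt2, the partner of Mt1 in metal buffering, had fewer counts. They were 44, 24, 21 and 12 in control and 21, 19, 56 and 23 in zinc deficient libraries. The corresponding CPM values were 3.72, 2.28, 2.45 and 1.2 in control and 2.12, 1.72, 4.88 and 1.82 in zinc deficient. The diets overlapped, and a single library, zinc deficient replicate 3, stood above the other 7. On the TMM scale that library was at 4.47, with the other zinc deficient libraries at 2.27, 2.4 and 2.15 and the controls at 2.37, 1.97, 2.65 and 1.27. The same library had the highest tuft marker sum (311 CPM against at most 71.5 CPM elsewhere), the highest immune sum (3.14 CPM against at most 0.423 CPM) and an enterocyte sum of 144 CPM, close to the 142 CPM of control replicate 3. Their part in the Mt2 level was not tested.

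Mtf1, the metal sensor itself, was also present in every library. Its counts were 120, 105, 54 and 61 in control and 108, 69, 110 and 101 in zinc deficient libraries. In CPM it was at 10.1, 9.98, 6.31 and 6.11 in control and at 10.9, 6.26, 9.59 and 7.99 in zinc deficient, and each diet held both high and low libraries, with overlapping ranges. In TMM-scaled CPM the controls were at 6.47, 8.61, 6.81 and 6.46 and the zinc deficient libraries at 11.7, 8.71, 8.77 and 9.45. On that scale alone the diets did not overlap, by the small gap between control replicate 2 and zinc deficient replicate 2.

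**Figure D1:**
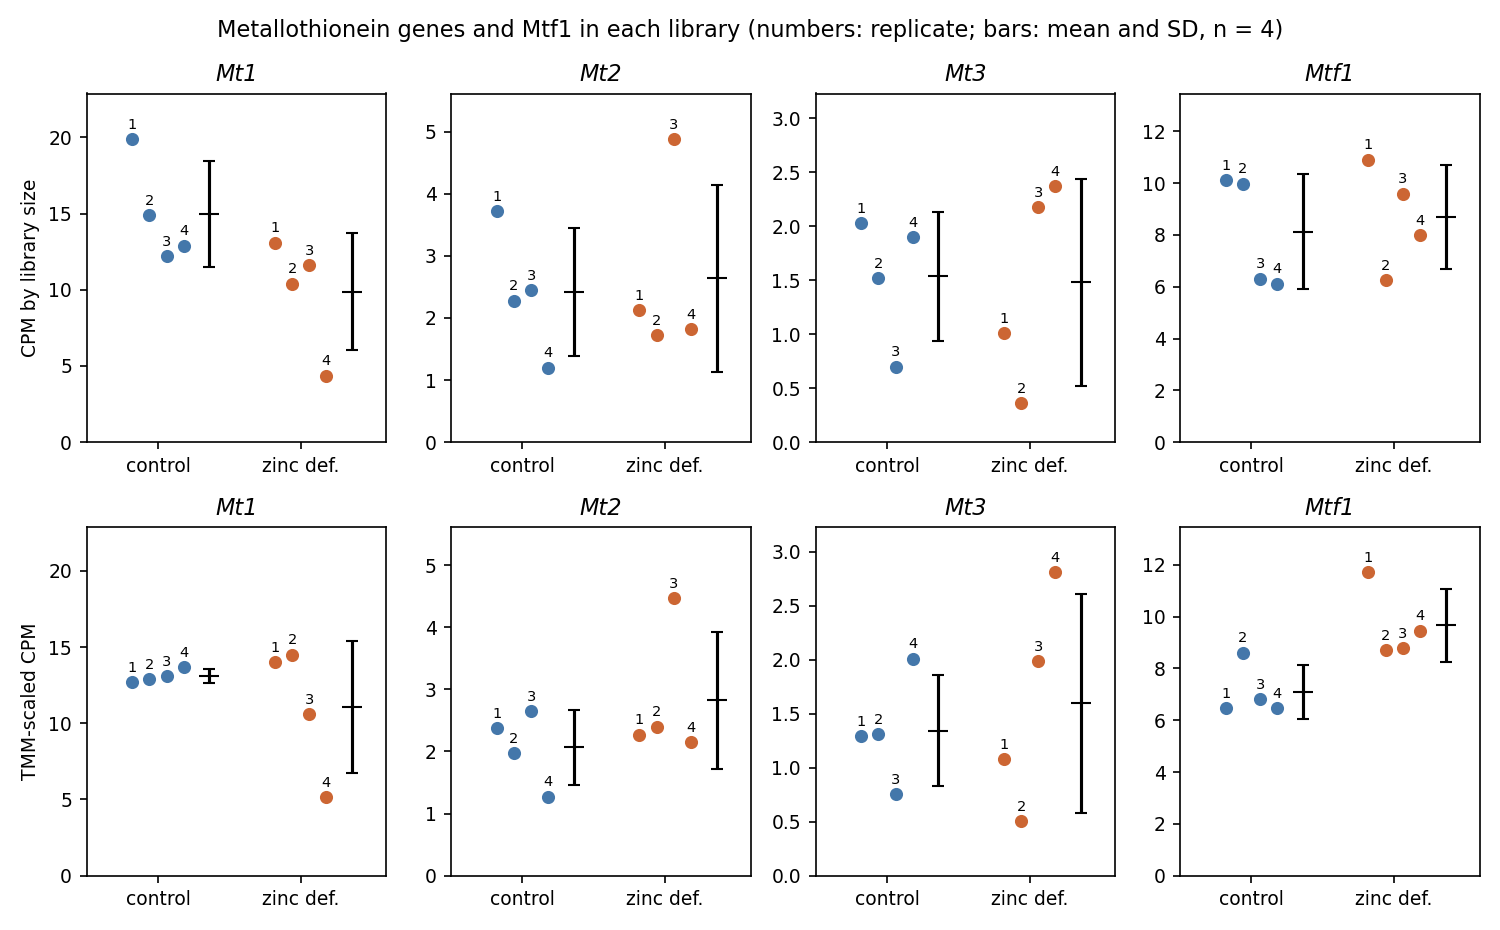
Levels of Mt1, Mt2, Mt3 and Mtf1 in the 8 libraries, as CPM by library size (upper row) and as TMM-scaled CPM (lower row), with control in blue and zinc deficient in orange, replicate numbers above the points, and bars for the mean and SD (n = 4). The TMM-scaled Mt1 values of the controls lie between 12.7 and 13.7 while those of the zinc deficient libraries run from 5.14 to 14.5, and the diets are separate for Mtf1 only in the lower row. The Mt1 controls lie closer together there than counting error alone gives.

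The remaining family members had few counts, though Mt3 was detected in every library. Mt3, the brain-type metallothionein, had 24, 16, 6 and 19 counts in control and 10, 4, 25 and 30 in zinc deficient libraries, again with overlapping diets. Mt4, known from stratified epithelia, had 2 counts in control replicate 1 and none in the other 7 libraries, where a count of 0 allows at most 0.237 to 0.351 CPM (3 counts, counting error only). Mt4 was too low to be tested.

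Set against length, Mt1 was the leading transcript of the group. As TPM (counts divided by the summed exon length and scaled to the same total in each library), the mean of 8 libraries was 8.35 ± 3.58 (SD, n = 8) for Mt1, 2.23 ± 1.19 for Mt2, 0.908 ± 0.467 for Mt3 and 0.769 for Mtf1. Mt1 ranked 1122 and Mt2 ranked 3943 by mean TPM among 18839 genes with a count, and Mtf1 ranked 7609. Mt1 was above Mt2 per length in 8 of 8 libraries, by 1.91 ± 0.73 on the log2 scale (SD, exact sign-flip permutation test, two-sided, p = 0.00781, the smallest it can give with 8 libraries, Benjamini-Hochberg adjusted p = 0.0234 over the 3 neighbours in the order). Mt2 was above Mt3 in 7 of 8 libraries, by 1.36 ± 0.95 (exact p = 0.0156, adjusted p = 0.0234). With the length of the canonical transcript instead, Mt2 was above Mt3 in 6 of 8 libraries, by 1.01 ± 0.95 (exact p = 0.0312, adjusted p = 0.0468). Mt3 and Mtf1 did not differ beyond their spread, with a difference of 0.1 ± 0.81 (exact p = 0.734). The order was taken from the mean TPM of these same libraries, so the pairs and their direction were not set beforehand. Of all counts of the series, Mt1 took 0.00123%, Mt2 0.000256% and Mtf1 0.000847%.

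How much of a gene the reads could tell apart differed between the members. Of the 693 stretches of 70 bases of the canonical Mt1 transcript, 693 occurred in no other annotated transcript on either strand. For Mtf1 the share was 90.9%, the rest being shared with 1110065P20Rik, which overlaps its 3′ end on the opposite strand. For Mt2 it was 44.5%, because the long non-coding gene Gm45774 overlaps it on the opposite strand. Gm45774 itself had 0 or 1 count in each library. The strand setting of the counting is not known from the sources used here, and if strand was not used, Mt2 reads in the overlap could have been left uncounted. The Mt2 level, its comparisons with Mt1 and Mt3 above and the ratios to it below carry that limit. Its comparison between diets is made within the same gene.

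The diet comparison asked whether zinc depletion lowered the metal-responsive genes. In the fit over all genes with edgeR's quasi-likelihood test and Benjamini-Hochberg adjustment, 0 of the 3 members passed an adjusted p of 0.05, where 44 of 10911 genes tested did (0.403%, with 16 higher and 28 lower in zinc deficient libraries). At an unadjusted p under 0.05 there was 1 member, Mtf1, beside 1142 of all genes tested (10.5%, made up of 4.43% higher and 6.04% lower in zinc deficient libraries). DESeq2's Wald test also called 0 of the 3, where it called 146 of the 10911 genes tested. That count is the one to set beside the DESeq2 counts given below.

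Mt1 was at 13.1 ± 0.426 TMM-scaled CPM in control and 11.1 ± 4.32 in zinc deficient libraries (mean ± SD, n = 4 each). The log2 fold change, zinc deficient against control, was -0.25 with a standard error of 0.24, or 0.842-fold with a 95% interval from 0.591 to 1.2 (edgeR adjusted p = 0.786). The difference was thus within the spread between replicates, and the interval still admits a fall of the lower bound's size. It rested on zinc deficient replicate 4, since the log2 fold change was -0.01 without that library. This library had the lowest stem marker sum (461 CPM), the lowest enteroendocrine sum (1.58 CPM) and the highest goblet sum (10600 CPM). The goblet genes did not move together in it. Muc2 (2430 TMM-scaled CPM), Clca1 (174) and Spink4 (9170) were at their highest of all libraries. Fcgbp (111) and Zg16 (0.374) were at their lowest on this scale, with zinc deficient replicate 2 close at 115 and 0.379, and Tff3 (692) lay between. In CPM, zinc deficient replicate 2 was the lowest for Fcgbp and Zg16, at 82.9 and 0.272. Of the Paneth markers, only Ang4 (39500) and Mptx2 (29900) were at their highest. The part of these differences in the Mt1 level was not tested. By library size alone the log2 fold change was -0.61 (adjusted p = 0.372), where the median of all genes was at -0.369. An exact two-sided permutation test on log2(CPM + 1) over the 70 assignments of the libraries gave a difference of -0.62 and p = 0.0857, where the smallest possible p is 0.0286. In bulk samples such as these, fewer cells of a type and less RNA per cell cannot be told apart.

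Mt2 was at 2.06 ± 0.599 TMM-scaled CPM in control and 2.82 ± 1.1 in zinc deficient libraries (SD, n = 4 each). Its log2 fold change was 0.46 with a standard error of 0.37, or 1.37-fold with a 95% interval from 0.806 to 2.35 (edgeR adjusted p = 0.725). The sign was opposite to that of Mt1, and neither passed the test. Without zinc deficient replicate 3 the log2 fold change of Mt2 was 0.14. The exact permutation test on log2(CPM + 1) gave a difference of 0.06 and p = 0.857.

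Mtf1 was at 7.09 ± 1.03 TMM-scaled CPM in control and 9.65 ± 1.38 in zinc deficient libraries (SD, n = 4 each). Its log2 fold change was 0.44 with a standard error of 0.20, or 1.36-fold with a 95% interval from 1.02 to 1.81. The unadjusted p was 0.0382, at rank 944 of the genes tested, and the edgeR adjusted p was 0.441, so that the difference did not pass. Non-overlapping diets on the TMM scale were found for 1 of the 3 members and for 664 of all genes tested (6.09%). By library size alone the log2 fold change of Mtf1 was 0.09, and the exact permutation test on log2(CPM + 1) gave a difference of 0.09 and p = 0.714. The Mtf1 difference therefore depended on the scaling.

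Mt3 had a log2 fold change of 0.27 with a standard error of 0.49 (edgeR adjusted p = 0.905), and by library size alone its sign turned, to -0.06. The spread of the metallothionein genes between replicates was wider than that of most genes tested, many of which have more counts. The biological coefficient of variation in the edgeR fit was 0.235 for Mt1, 0.316 for Mt2 and 0.402 for Mt3, higher than that of 65.1%, 84.0% and 94.9% of the genes tested, and it was 0.185 for Mtf1, higher than that of 36.2%. The trend of the fit for genes of like abundance was 0.202 for Mt1, 0.335 for Mt2, 0.372 for Mt3 and 0.218 for Mtf1. Mt2 and Mtf1 thus lay below their trend, and Mt1 and Mt3 somewhat above it.

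**Figure D2:**
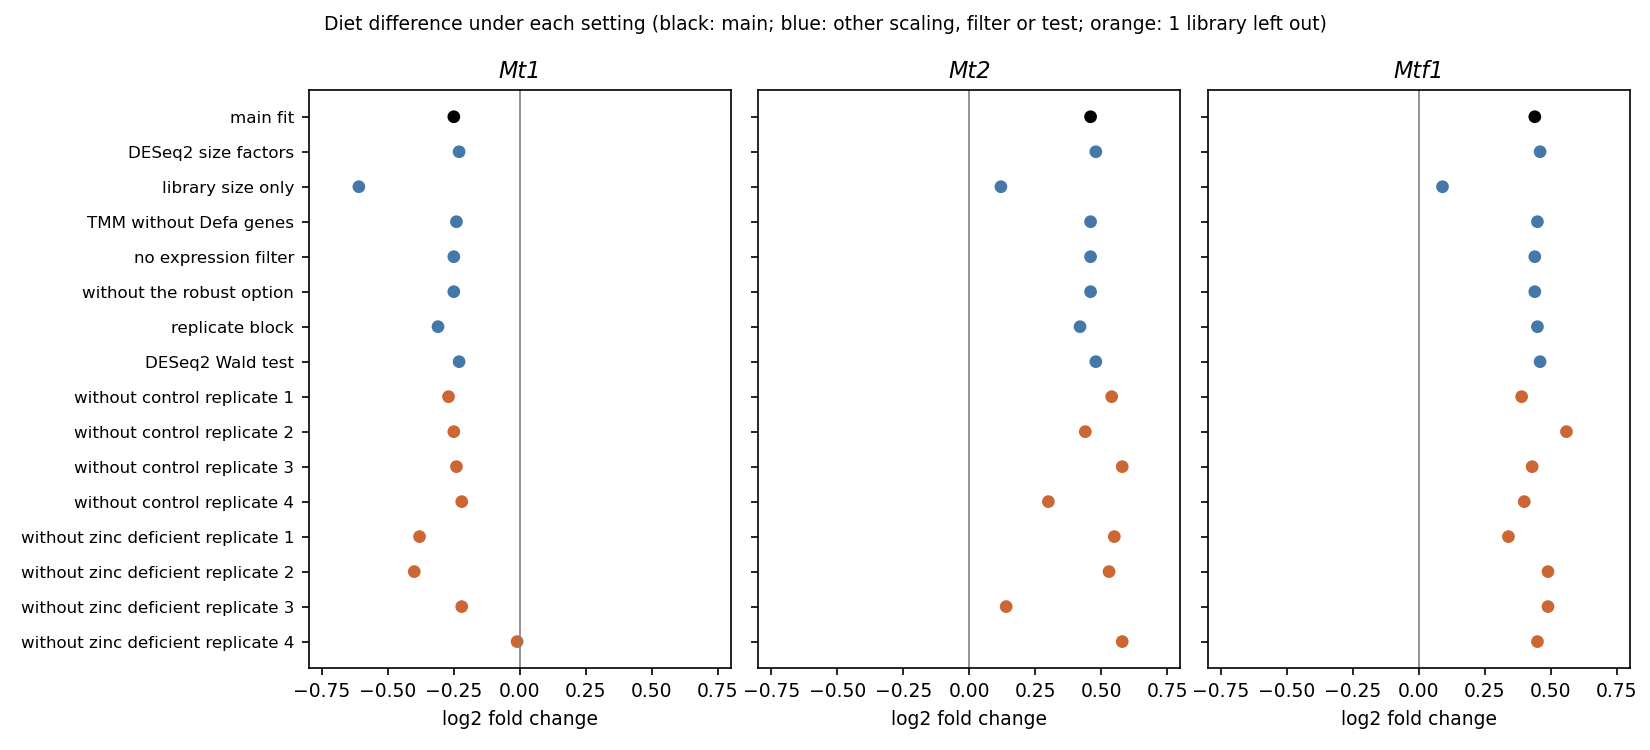
Log2 fold change of Mt1, Mt2 and Mtf1, zinc deficient against control, in the main fit (black), under another scaling, filter or test (blue) and with 1 library left out (orange). Mt1 lies at -0.61 by library size alone and at -0.01 without zinc deficient replicate 4, and Mtf1 falls from 0.44 to 0.09 by library size alone.

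Both metallothionein genes are read in the same library, so that their ratio is free of the scaling. Mt1 made up 84.2%, 86.7%, 83.2% and 91.5% of the summed Mt1 and Mt2 counts in the control libraries and 86.1%, 85.8%, 70.4% and 70.5% in the zinc deficient ones. The first 2 zinc deficient libraries were within the control range, and replicates 3 and 4 were below it. The 95% Wilson intervals of these replicates, 63.5% to 76.4% and 59.6% to 79.5%, cover counting error only and overlap that of control replicate 3 (75.7% to 88.7%). Replicate 3 reached its low share through a high Mt2 count (56, with 133 for Mt1), and replicate 4 through a low Mt1 count (55, with 23 for Mt2). As a ratio of counts, Mt1 to Mt2 ran from 4.95 to 10.8 in control and from 2.38 to 6.19 in zinc deficient libraries. The pair was not tested as a ratio.

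**Figure D3:**
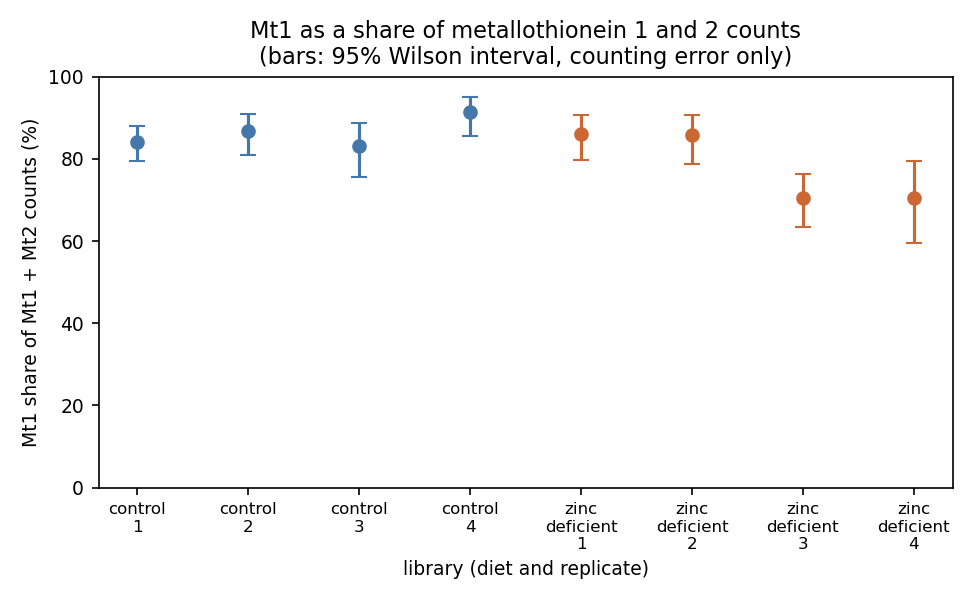
Mt1 as a percentage of the summed Mt1 and Mt2 counts in each library, with 95% Wilson intervals for counting error, control in blue and zinc deficient in orange. Zinc deficient replicates 3 and 4 lie at 70.4% and 70.5%, below the control range of 83.2% to 91.5%, while replicates 1 and 2 lie within it.

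No correlation between the members across libraries passed its test. On log2(CPM + 1), Pearson's r over 8 libraries was 0.33 for Mt1 and Mt2 (exact permutation p = 0.416, adjusted p = 0.553), with a Spearman rho of 0.31 (p = 0.462, adjusted p = 0.553, exact). For Mt1 and Mtf1, r was 0.29 (exact permutation p = 0.553, adjusted p = 0.553) and rho 0.57 (exact p = 0.151, adjusted p = 0.302). For Mt2 and Mtf1, r was 0.58 (exact permutation p = 0.144, adjusted p = 0.302) and rho 0.57 (exact p = 0.151, adjusted p = 0.302). The family held 6 coefficients. Without the 2 libraries farthest from the median on the first gene, r was -0.14, 0.5 and 0.47 for these pairs, and on TMM-scaled CPM it was -0.11, -0.23 and 0.24. With 4 libraries in each diet, no coefficient within a diet is given.

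The genes most like each member over the 8 libraries were taken by Pearson's r of log2(CPM + 1) among 10769 genes whose mean reached 1 CPM. They are a description, since all genes of a library share its depth and composition, and the median r of all genes was already 0.524 with Mt1, 0.492 with Mt2 and 0.482 with Mtf1. Nearest to Mt1 were Svip (r = 0.982), Ercc1, Trdmt1, Wee1 and Pdk1 (r = 0.978). Nearest to Mt2 were Synpo (r = 0.957), Armcx3, Bcl2l14, Tmem106a and Zfp1001 (r = 0.938). Nearest to Mtf1 were Polr2e (r = 0.967), Kctd6, Cracd, Angptl8 and Acap3 (r = 0.951). On TMM-scaled CPM, Trdmt1, Pdk1 and Ercc1 stayed among the 5 nearest to Mt1, and Tmem106a and Synpo among those nearest to Mt2. None of the 5 named for Mtf1 did.

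Genes described as MTF1 targets outside the metallothioneins were compared next. Of 12 listed, 10 could be tested and 0 passed with edgeR, against 0.403% of all genes tested. With DESeq2 0 passed, against 146 of 10911 genes. At an unadjusted p under 0.05 there were 2, against 10.5% of all genes tested, and 5 were higher and 5 lower in point estimate. Slc30a1, the plasma membrane zinc exporter and the classical partner of Mt1 as an MTF1 target, was at 2.46 ± 0.632 TMM-scaled CPM in control and 1.94 ± 0.579 in zinc deficient libraries (log2 fold change -0.37, standard error 0.37, edgeR adjusted p = 0.789). Slc39a10, a zinc importer that MTF1 represses, was at 23.7, 30.7, 21.8 and 22.7 TMM-scaled CPM in control and at 30.9, 25.9, 33.7 and 56.5 in zinc deficient libraries, so that 1 control lay within the zinc deficient range (log2 fold change 0.57, standard error 0.21, edgeR adjusted p = 0.303). Its log2 fold change was 0.29 without zinc deficient replicate 4 and 0.2 by library size alone. Slc40a1, the iron exporter ferroportin, was read at 0.363 to 2.91 CPM and had a log2 fold change of -1.14 with a standard error of 0.51 (edgeR adjusted p = 0.443). Slc30a2, an exporter that loads zinc into vesicles, was at 75.8 to 151 CPM in control and 77.6 to 109 CPM in zinc deficient libraries, and its log2 fold change was 0.19 (edgeR adjusted p = 0.722). Gclc, Ndrg1, Csrp1, Selenow, Selenoh and Txnrd2 had log2 fold changes between -0.27 and 0.12. Hamp, the hormone hepcidin, had 13 counts in all and Pgf, a placental growth factor, had 0.

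The zinc transporters gave no call either. Of 14 ZIP importers (Slc39a genes), 12 were tested and 0 passed with edgeR (0 with DESeq2), with 8 higher, 4 lower and a median log2 fold change of 0.03. At an unadjusted p under 0.05 there were 4, with 3 higher and 1 lower, against 10.5% of all genes tested. In 3 of the 12 the diets did not overlap on the TMM scale, against 6.09% of all genes tested. Slc39a5, a basolateral zinc importer, was at 11.7, 11.1, 16.6 and 12.7 TMM-scaled CPM in control and 7.55, 8.08, 7.66 and 8.98 in zinc deficient libraries, without overlap (log2 fold change -0.68, standard error 0.19, unadjusted p = 0.00195, edgeR adjusted p = 0.141). Slc39a8, which carries zinc and manganese, was at 45.1 ± 2.14 in control and 57.9 ± 5.82 TMM-scaled CPM in zinc deficient libraries, without overlap (SD, n = 4 each, log2 fold change 0.36, standard error 0.13, edgeR adjusted p = 0.308). Slc39a1 was at 36.7 ± 4.04 and 45.5 ± 4.85, also without overlap (log2 fold change 0.31, standard error 0.14, edgeR adjusted p = 0.445). By library size alone the log2 fold change was -0.02 for Slc39a1, 0.0 for Slc39a8 and -1.03 for Slc39a5. Slc39a4, the main importer of dietary zinc in enterocytes, had a log2 fold change of -0.08 (edgeR adjusted p = 0.941). Of 10 ZnT exporters (Slc30a genes), 7 were tested and 0 passed with edgeR (0 with DESeq2 and 0 at an unadjusted p under 0.05), with 5 higher, 2 lower and a median of 0.06. Slc39a10, Slc30a1 and Slc30a2 stand in more than 1 of these lists.

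**Figure D4:**
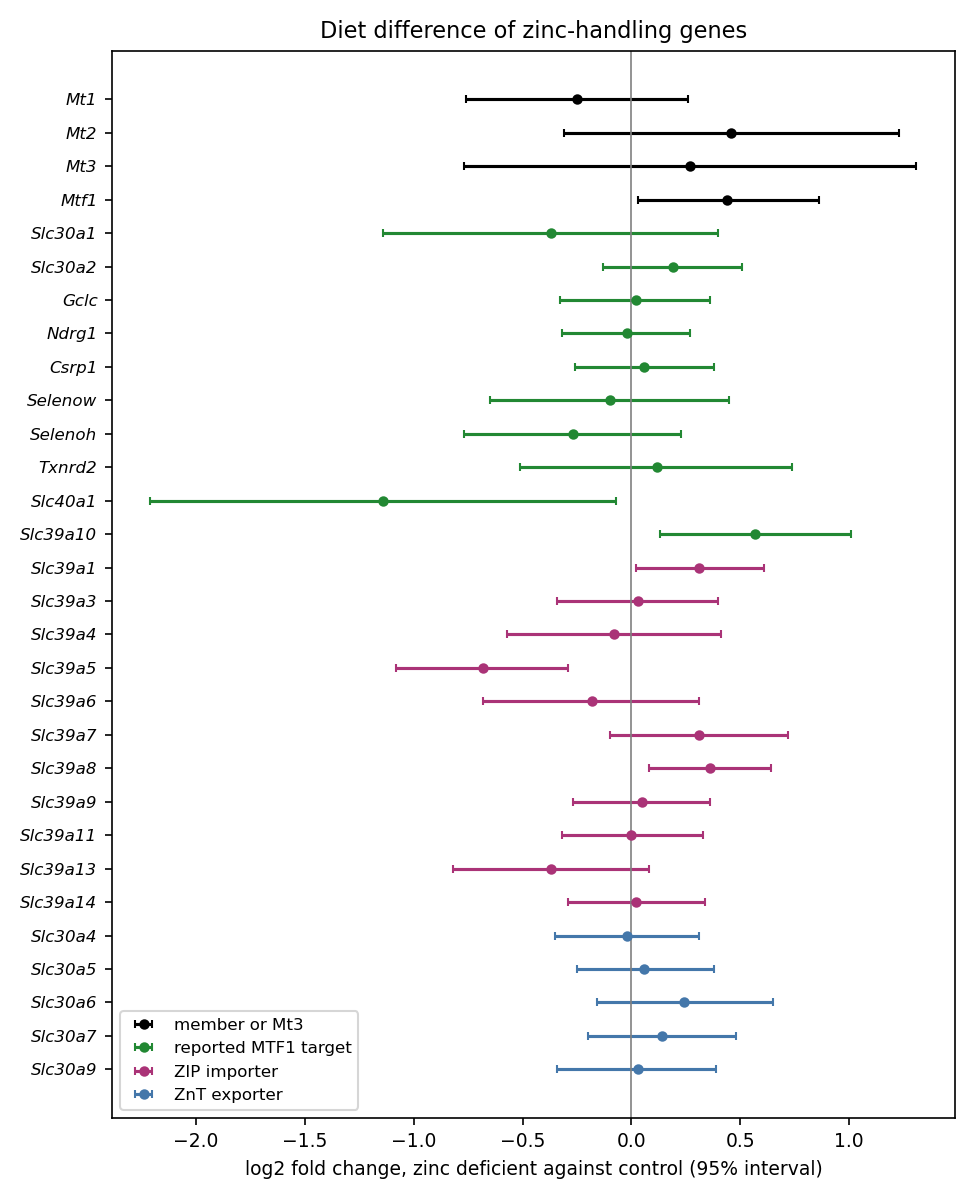
Log2 fold change with 95% interval, zinc deficient against control, for the metallothionein genes and Mtf1 (black), other genes described as MTF1 targets (green), ZIP importers (purple) and ZnT exporters (blue); a gene in more than 1 list is drawn once. The point estimates run from -1.14 for Slc40a1 to 0.57 for Slc39a10, and 0 of them passed an adjusted p of 0.05.

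Glucocorticoids and oxidative stress are further inducers of Mt1 and Mt2, and their other target genes were read beside them. Of 9 glucocorticoid genes, 8 were tested and 0 passed with edgeR (0 with DESeq2 and 2 at an unadjusted p under 0.05, against 10.5% of all genes tested), with 1 higher, 7 lower and a median log2 fold change of -0.11. In 2 of the 8 the diets did not overlap on the TMM scale, against 6.09% of all genes tested. Nr3c1, the glucocorticoid receptor, was at 18.6, 22.8, 16.6 and 20.3 TMM-scaled CPM in control and 11.1, 13.3, 15.2 and 9.73 in zinc deficient libraries, without overlap (log2 fold change -0.67, standard error 0.18, edgeR adjusted p = 0.123). Tsc22d3, a direct receptor target, was at 12.6 ± 0.757 and 9.96 ± 0.658 TMM-scaled CPM, also without overlap (edgeR adjusted p = 0.506). Dusp1, a phosphatase that damps MAP kinases, had the only positive estimate of the list, 0.95 with a standard error of 0.44 (edgeR adjusted p = 0.462). Of 11 genes of the NRF2 antioxidant response, 9 were tested and 0 passed with edgeR (0 with DESeq2 and 1 at an unadjusted p under 0.05), with 6 higher, 3 lower and a median of 0.15. That gene was Gstm1, a glutathione transferase, with a log2 fold change of -0.60 (standard error 0.21, edgeR adjusted p = 0.276). Gclc, which makes the first step of glutathione synthesis and is also listed as an MTF1 target, had a log2 fold change of 0.02.

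The genes around the metallothionein cluster gave no call. Of 20 other annotated genes that start within 250 kb of Mt1 on chromosome 8, 8 were tested and 0 passed with edgeR (0 with DESeq2 and 0 at an unadjusted p under 0.05), with 6 higher, 2 lower and a median log2 fold change of 0.15. Herpud1, a gene of endoplasmic reticulum degradation, had the most counts of them, at 253 to 391 CPM in control and 169 to 420 CPM in zinc deficient libraries (log2 fold change 0.26, edgeR adjusted p = 0.724). Nup93, of the nuclear pore, had the lowest estimate, -0.42 with a standard error of 0.22 (edgeR adjusted p = 0.536).

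Promoters that hold several core matches, as those of Mt1 and Mt2 printed above do, were examined over all genes. Of 8576 tested genes matched to a RefSeq window by symbol, 335 (3.91%), not counting Mt1 and Mt2, held at least 3 matches. Of these, 1 was called with edgeR (0.299%, against 0.403% of all genes tested) and 36 had an unadjusted p under 0.05 (10.7%, against 10.5% of all genes tested), and the median log2 fold change was -0.01. The called gene was Cdt1, a licensing factor for DNA replication, at 12.1, 8.2, 7.31 and 9.32 TMM-scaled CPM in control and 4.75, 4.67, 4.47 and 2.99 in zinc deficient libraries. The diets did not overlap (log2 fold change -1.14, standard error 0.24, edgeR adjusted p = 0.0393). Leaving out 1 library kept the call in 1 of 8 cases, that of control replicate 3, with adjusted p from 0.0473 to 0.145. The summed stem markers, mostly Olfm4, also did not overlap between the diets, and their part in the Cdt1 difference was not tested.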

How the data were processed

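The labels name FastQC 0.12.0, STAR 2.7.0a, DESeq2 and the mm39 genome for the deposited files. The authors deposited 1 table of raw counts of reads per Ensembl gene, whole numbers with no normalization. The sources used here do not give the counting program, its strand setting or its treatment of reads with several matches. Of 55414 identifiers, 54749 were named from GENCODE release M39, and 665 were not. The members and gene lists were chosen with earlier results of these data known.

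From the counts, the diets were compared with edgeR 4.0.16 (filterByExpr, TMM, robust quasi-likelihood fit, Benjamini-Hochberg adjustment over 10911 genes, threshold 0.05) in R 4.3.3, with all 8 libraries and diet as the single term. The script was tested on simulated data. CPM is counts per 1000000 of the library total, and levels across genes are TPM by exon length. Exact permutation tests used log2(CPM + 1). Counting intervals cover counting error only. Libraries held 8557690 to 12648005 counts. No pair of libraries within a diet agreed within sampling noise (chi-square per degree of freedom from 5.7 to 59.3). Alternatives were DESeq2 1.42.0, DESeq2 size factors, library size alone, TMM without Defa genes, no expression filter, a fit without the robust option, a replicate block, and each library left out. Named genes were the members, Mt3, Mt4, the list members, called genes with at least 3 core matches, and the 5 genes most like each member.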

Additional observations from a re-analysis of the deposited data

Results flagged for a closer look

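In 36 groups of 4 libraries, a value was set apart where its gap to the nearest other value, as a share of the group's range, exceeded Dixon's 95% critical value for 4 values, which chance gives in about 1 in 20 groups. Mt2 in zinc deficient replicate 3 was set apart from its group on both scales, at 4.88 CPM against 1.72 to 2.12 in the other 3 libraries and at 4.47 TMM-scaled CPM against 2.15 to 2.4. Mtf1 in control replicate 2 was set apart on the TMM scale, at 8.61 against 6.46 to 6.81, and it is this library that lay nearest to the zinc deficient range. Cdt1 in zinc deficient replicate 4 was at 2.99 TMM-scaled CPM against 4.47 to 4.75.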

How the results depend on the processing

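For Mt1, Mt2 and Mtf1, 0 of the 7 other settings and 0 of the 8 fits without 1 library gave a call. The log2 fold change ranged from -0.61 to -0.23 and, with libraries left out, from -0.4 to -0.01 for Mt1. It ranged from 0.12 to 0.48 and from 0.14 to 0.58 for Mt2, and from 0.09 to 0.46 and from 0.34 to 0.56 for Mtf1. The number of genes called between the diets, 44, was 11 by library size alone, 251 without the expression filter, 25 without the robust option and 146 with DESeq2, and 8 to 36 with 1 library left out. Without the filter, which tests 18839 genes, 1 MTF1 target and 1 zinc importer, in both cases Slc39a10 (adjusted p = 0.0481), and 1 glucocorticoid gene, Nr3c1 (adjusted p = 0.0429), were called. The count of called genes with at least 3 core matches, 1, was 0 by library size alone and without the robust option, 5 without the filter, 2 with the replicate block, 4 with DESeq2 and 0 to 1 with 1 library left out. The gene called without zinc deficient replicate 3 was Psat1, not Cdt1. The correlation of Mt1 with Mt2 turned to -0.11 on TMM-scaled CPM and to -0.14 without the 2 farthest libraries, and that of Mt1 with Mtf1 turned to -0.23 on TMM-scaled CPM. The cause of these changes was not tested. The remaining 181 values stayed on their side of the threshold where they had a test, within 1.5 times where they were counts, and within 1 SD where they were levels.

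Same-numbered libraries of the diets deviated together only weakly (r from 0.0254 to 0.09), though 3 of 4 control libraries correlated best with their own number. These values do not settle whether the numbers are pairs. The labels do not say what a number shares, so the main fit did not read the numbers as pairs. With a replicate block the log2 fold changes were -0.31 for Mt1, 0.42 for Mt2 and 0.45 for Mtf1, and 53 genes were called. Mt2 had 12 to 56 counts per library, and its coefficient of variation on the TMM scale was 29.0% in control and 39.1% in zinc deficient libraries, where counting error alone gives 22.1% and 20.1%.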
